A study of Homo sapiens with 5 samples.

Results

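Expression of the genes for glucose uptake, glycolysis and lactate formation was followed in 5 clones derived from Nalm6, a human B-precursor leukaemia line in long use. The set was a list of 37 named genes. A gene was measured where the array annotation gave a probe set exactly 1 symbol, and the brightest such probe set, by its 5-array mean, stood for the gene. By that rule 34 of the 37 were found among 18417 genes in all. PGAM1, which encodes a phosphoglycerate mutase, is named only by probe sets shared with its near copy PGAM4. The lactate carriers SLC16A1 and SLC16A3 were not analysed here, so lactate export itself is not covered by any value below.

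The control group held 2 clones with a nonsense short hairpin RNA (shRNA), and the other group held 3 clones whose shRNA was directed at MondoA. Each clone gave 1 array. All 5 clones thus carried a hairpin and were grown alike, with 20% serum and glucose at 200 mg/dl. The labels do not say whether the 3 MondoA shRNA clones carried the same hairpin. The title of the series asks about metabolism, differentiation and survival in this leukaemia, and the comparison bears on the first of these.

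Glycolysis splits glucose into pyruvate and yields ATP without oxygen. Hexokinases trap glucose in the cell, phosphofructokinase commits it to the pathway, and lactate dehydrogenase regenerates the NAD+ that the triose steps use. Several steps are served by more than 1 gene, and the choice of isoform differs between tissues and in tumours. MondoA is the transcription factor made from MLXIP, and it responds to glucose 6-phosphate, the product of hexokinase, and the hypoxia factor HIF1 and MYC are known inducers of glycolytic genes.

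Levels are given as log2 RMA expression, with the log base taken as 2 (robust multi-array average, which gives 1 normalised value per probe set and array). Differences are MondoA shRNA minus control shRNA, tested by limma (moderated linear models over all genes), with p adjusted by Benjamini-Hochberg over 18417 genes and a threshold of 0.05. A value after ± is the SD, with n = 2 for control and n = 3 for MondoA shRNA clones. The level of a probe set also depends on its probes, so levels of different genes are not ranked against each other, and detection above background was not assessed. RMA gave 54.0% of genes, and 13 of the 34 members, the same value in at least 3 arrays, which makes their spread appear smaller than it may be.

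MLXIP RNA was not detectably lower in the clones labelled MondoA shRNA. In control clones 1 and 2 it stood at 6.42, and in MondoA shRNA clones 1, 2 and 3 at 6.42, 6.47 and 6.29 (difference -0.03, adjusted p = 0.959 by limma). The directions below therefore refer to the label. TXNIP, a glucose-induced MondoA target that restrains glucose uptake, read 9.03 and 8.89 against 8.91, 8.91 and 8.75 (difference -0.10, adjusted p = 0.833 by limma). The arrays correlated with each other at 0.990 to 0.995 over probe sets. Of the fixed B-precursor markers 11 of 13 were measured, with mean levels of 8.48 to 8.70 per array, and 11 of the 12 measured markers of T cells, myeloid cells, erythroid cells and fibroblasts lay below the median gene level of 4.15 (fibroblast COL1A1, at 4.79 in each array, did not). Among the 11 B-precursor markers CD22 (1.27), CD79A (0.91) and CD79B (0.25) were higher and DNTT (-1.19) lower (unadjusted p under 0.05, limma). Of all genes 1.55% stood on the higher and 2.18% on the lower side. RAG1 (-0.45) did not pass that p, but every MondoA shRNA clone lay below both controls, as in 5.18% of all genes. The same held in 770 of the 9208 genes above the median level and in 713 of the 4301 genes with no tied value. The differences of CD22, CD79A and DNTT were larger in size than that of any member. The part of these markers in the member values was not examined.

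Across the pathway, no member passed the adjusted threshold, and most members had a small difference between the groups, some with wide intervals. The members with the lowest unadjusted p were all lower in MondoA shRNA clones, namely PFKP, PFKL and the glucose transporter gene SLC2A3. Limma called 0 of 34 members at an adjusted p under 0.05, as it called 0% of all genes. At an unadjusted p under 0.05 in limma there were 3 members on the lower side, where 2.18% of all genes stood, and 0 on the higher side, where 1.55% stood. Those shares were 3.56% and 2.33% among genes above the median level, to which 26 members belonged. The difference lay within 0.2 log2 units of 0 in 27 of 34 members, among them all 13 with the same value in at least 3 arrays. The share of all genes within that bound was not counted. The median difference of the members was 0.01, against 0.00 over all genes, with 18 members above 0, 13 below and 3 at 0. Over all genes 9045 lay above 0, 7585 below and 1787 at 0. The lower count of 3 became 0 without control clone 1, with fewer arrays in the test, where the differences were -0.72 for PFKP, -0.29 for PFKL and -0.46 for SLC2A3. It was 1 (PFKP) without MondoA shRNA clone 3, where they were -0.58, -0.33 and -0.57. Without control clone 2 it was 2, HK1 and PFKM, which are other genes than the 3.

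**Figure D1:**
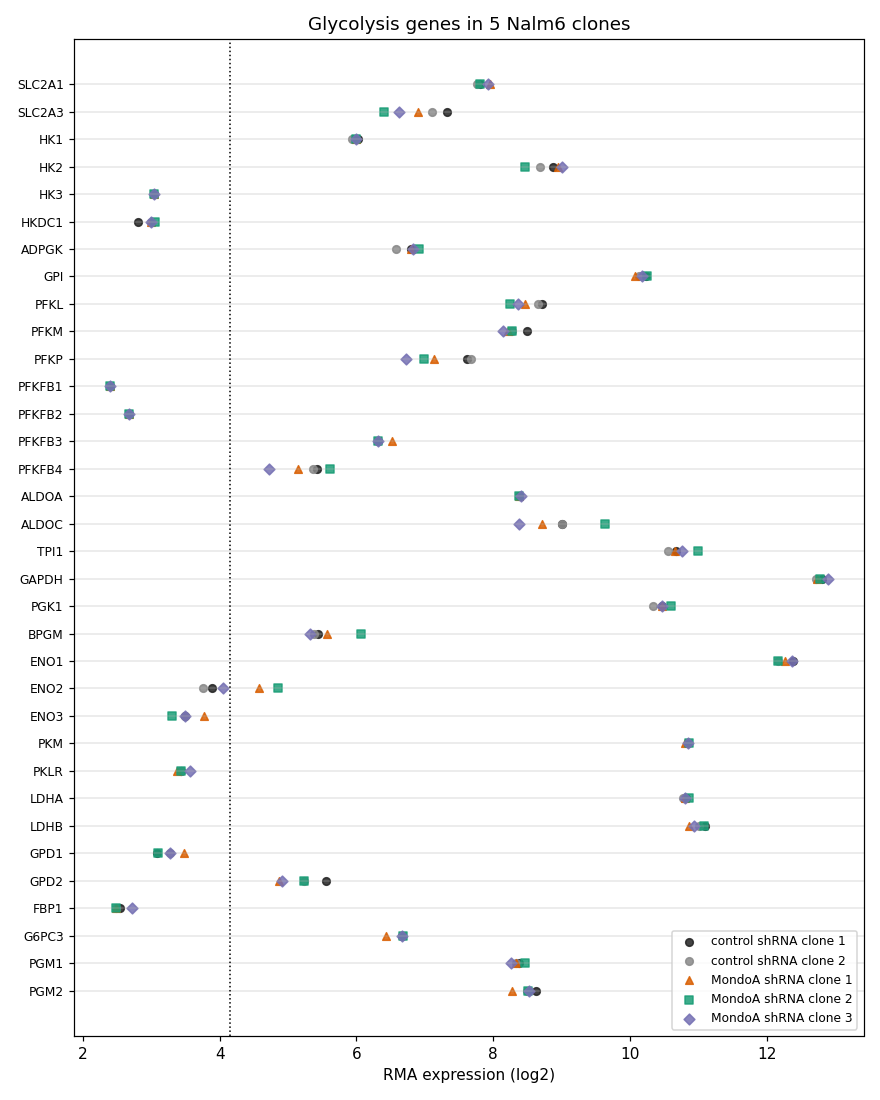
RMA expression (log2, x axis) of each of the 34 measured genes (rows, in pathway order) in each clone; circles are the 2 control shRNA clones and the triangle, square and diamond the 3 MondoA shRNA clones, and the dotted line is the median gene level of 4.15. Most genes show 5 overlapping points, while SLC2A3, PFKL and PFKP have all MondoA shRNA points to the left of both controls and ALDOC spreads from 8.38 to 9.64.

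**Figure D2:**
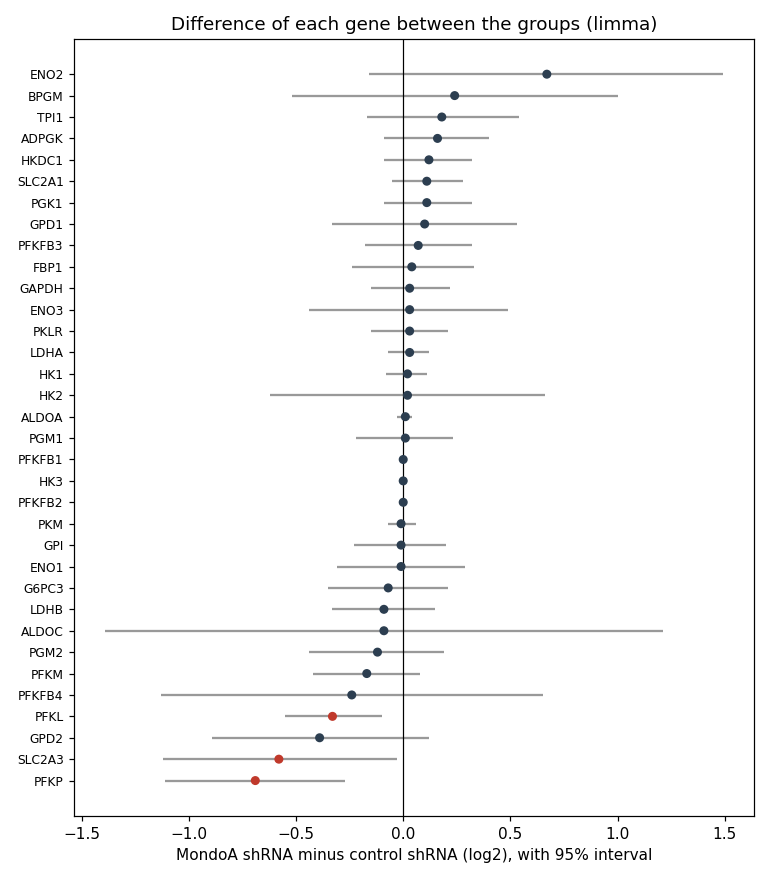
MondoA shRNA minus control shRNA (log2, x axis) for each gene with its 95% interval from limma, ordered by size; red points mark an unadjusted p under 0.05. The intervals of PFKP, SLC2A3 and PFKL lie below 0, and those of the other genes include it.

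Glucose enters through facilitative carriers, of which SLC2A1 (GLUT1) is the widespread one and SLC2A3 (GLUT3) a high-affinity one. SLC2A3 read 7.33 and 7.10 in the control clones and 6.90, 6.40 and 6.62 in MondoA shRNA clones 1, 2 and 3. Every MondoA shRNA clone lay below both controls, a separation on the lower side that 3 members and 5.18% of all genes showed. A value shared between the groups excludes separation. It was seen in 770 of the 9208 genes above the median level and in 713 of the 4301 genes with no tied value. All 3 members belong to both of these groups, which hold 26 and 16 members. The SLC2A3 difference was -0.58, or 1.49-fold lower, with a 95% interval from -1.12 to -0.03 (adjusted p = 0.833 by limma). SLC2A14, a near-identical neighbour of SLC2A3, read 4.53 and 4.82 against 4.53, 4.38 and 4.28, and signal shared between their probes was not tested. SLC2A1 read 7.80 and 7.77 in control and 7.96, 7.81 and 7.92 in MondoA shRNA clones. These do not overlap either, on the higher side, though clone 2 and control clone 1 nearly coincide. That side held 2 members and 4.85% of all genes, or 665 of those 9208 and 621 of those 4301 genes. The SLC2A1 difference was 0.11, with an interval from -0.05 to 0.28.

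The first step of the pathway differed little between the groups. HK2, the inducible hexokinase of proliferating cells, read 8.88 and 8.69 in control and 8.95, 8.46 and 9.01 in MondoA shRNA clones, with clone 2 the lowest of all 5. Its difference was 0.02 (95% interval from -0.62 to 0.66), an interval wide enough to hold a clear rise or a clear fall. HK1, the constitutive hexokinase, read 6.03 and 5.94 in control, and the 3 MondoA shRNA clones shared a single value between these (difference 0.02, 95% interval from -0.08 to 0.11). HK3 read 3.04 in every array. HKDC1, a hexokinase-like gene, read 2.90 ± 0.14 and 3.02 ± 0.03. HK3 and HKDC1 lay below the median gene level of 4.15, as did 8 of the 34 members in all. ADPGK, which phosphorylates glucose with ADP in place of ATP, read 6.69 ± 0.15 in control and 6.85 ± 0.06 in MondoA shRNA clones (difference 0.16). GPI, which turns glucose 6-phosphate into fructose 6-phosphate, read 10.18 ± 0.07 and 10.17 ± 0.09.

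Phosphofructokinase, the committing step, has 3 subunit genes. PFKP had the lowest difference among the members. This gene of the platelet-type subunit read 7.61 and 7.68 in control and 7.14, 6.99 and 6.73 in MondoA shRNA clones 1, 2 and 3. All 3 clones lay below both controls, and the gap exceeded the spread within each group. The difference was -0.69, or 1.61-fold lower, with a 95% interval from -1.11 to -0.27 (adjusted p = 0.833 by limma). PFKL, the liver-type subunit gene, read 8.72 and 8.65 in control and 8.47, 8.25 and 8.36 in MondoA shRNA clones. It was also separated, with a difference of -0.33, or 1.25-fold lower, and an interval from -0.55 to -0.10 (adjusted p = 0.833 by limma). PFKM, the muscle-type subunit gene, read 8.49 and 8.27 against 8.22, 8.27 and 8.14. Its groups touched, as control clone 2 and MondoA shRNA clone 2 shared a value, and its difference was -0.17 (95% interval from -0.42 to 0.08), or -0.061 without control clone 1 and -0.28 without control clone 2. All 3 subunit genes thus had a negative difference under each scaling tried (as deposited, quantile normalised anew, or centred). They lie on chromosomes 10, 21 and 12.

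Windows of 250 bases before the start sites of PFKP and PFKL are shown because these genes had the lowest p of the set. Sequences are from RefSeq promoters of GRCh38.p14, 5′ to 3′ in the direction of the gene, and end just before the annotated start. Capitals mark ACGTG or GCGTG on either strand, the core letters bound by HIF1, and with them any CACGTG, the E-box letters bound by MYC and by MondoA with MLX. Of 4 annotated PFKP windows the 1 with ACGTG is given, chosen for those letters; 2 others hold no marked letters, and the one that starts at 3104359 holds GCGTG at 3 places.
PFKP, chr10:3068939-3069188, plus strand: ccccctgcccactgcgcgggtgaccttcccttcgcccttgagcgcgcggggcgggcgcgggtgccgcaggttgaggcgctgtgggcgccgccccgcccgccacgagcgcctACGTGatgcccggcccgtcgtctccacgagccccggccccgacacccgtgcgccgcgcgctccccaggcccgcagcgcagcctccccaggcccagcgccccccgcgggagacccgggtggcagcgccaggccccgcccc
PFKL, chr21:44299803-44300052, plus strand: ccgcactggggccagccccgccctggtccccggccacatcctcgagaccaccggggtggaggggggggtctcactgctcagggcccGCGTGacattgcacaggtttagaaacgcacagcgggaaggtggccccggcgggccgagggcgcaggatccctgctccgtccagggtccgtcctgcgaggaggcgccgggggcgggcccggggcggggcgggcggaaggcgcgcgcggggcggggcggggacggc
Neither window holds CACGTG. The PFKP window shown has a single ACGTG and that of PFKL a single GCGTG. A match is a description of letters, and nothing about binding was measured.

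The PFKFB genes encode the enzymes that make and break fructose 2,6-bisphosphate, the activator of phosphofructokinase. PFKFB3, the form with the strongest kinase activity, read 6.31 in both controls and in MondoA shRNA clones 2 and 3, and 6.52 in clone 1. PFKFB4 read 5.43 and 5.36 in control and 5.14, 5.61 and 4.72 in MondoA shRNA clones, which lay on both sides of the controls. Its difference was -0.24 with an interval from -1.13 to 0.65. It ran from -0.47 without MondoA shRNA clone 2 to -0.023 without clone 3, and was -0.53 with array weights. The weights were 3.06 for MondoA shRNA clone 3, 0.503 and 0.405 for clones 1 and 2, and 1.27 for each control clone. A weighted difference thus rests mainly on clone 3 within its group. PFKFB1 read 2.40 and PFKFB2 2.68 in each of the 5 arrays, both below the median gene level, so these probe sets carry no information on the groups.

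Of the aldolases, which split the hexose, the ubiquitous ALDOA read 8.38 in both controls and in MondoA shRNA clones 1 and 2, and 8.41 in clone 3. ALDOC, the brain-type form, read 9.01 in control clone 1, with clone 2 lower by 0.01, and 8.72, 9.64 and 8.38 in MondoA shRNA clones 1, 2 and 3. The MondoA shRNA clones thus lay on both sides of the controls, and their range of 1.26 was the widest of any member. Its group difference was -0.09 with an interval from -1.39 to 1.21. FBP1, the fructose bisphosphatase of gluconeogenesis, read 2.52 ± 0.05 and 2.56 ± 0.14. G6PC3, the widespread glucose 6-phosphatase, read 6.66 in both controls and 6.43, 6.68 and 6.66 in MondoA shRNA clones.

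The enzymes of the triose steps were close between the groups. GAPDH, which reduces NAD+, read 12.76 ± 0.06 in control and 12.80 ± 0.08 in MondoA shRNA clones (difference 0.03, interval from -0.15 to 0.22). PGK1, the first ATP-yielding enzyme, read 10.47 and 10.33 against 10.47, 10.60 and 10.47 (difference 0.11). TPI1, the triose phosphate isomerase, read 10.67 and 10.56 against 10.66, 10.99 and 10.76 (difference 0.18, interval from -0.17 to 0.54), and its other probe set gave 0.28. BPGM, which makes 2,3-bisphosphoglycerate, read 5.44 and 5.38 in control and 5.57, 6.06 and 5.32 in MondoA shRNA clones, with clone 2 far above the rest. Its difference was 0.24 with an interval from -0.52 to 1.00. It ran from 0.033 without MondoA shRNA clone 2 to 0.41 without clone 3, and was 0.013 with array weights, which favour clone 3.

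Among the enolases, ENO1 is the common form, ENO2 the neuronal form and ENO3 the muscle form. ENO2 had the highest difference of the set. It read 3.89 and 3.76 in control and 4.58, 4.86 and 4.05 in MondoA shRNA clones 1, 2 and 3. All 3 clones lay above both controls, but clone 3 was nearer to them than to clone 2. The difference was 0.67, or 1.59-fold higher, with an interval from -0.16 to 1.49 (adjusted p = 0.833 by limma). The control mean of 3.83 and MondoA shRNA clone 3 at 4.05 lie below the median gene level. Background may compress the difference there, which was not tested. The difference ran from 0.49 without MondoA shRNA clone 2 to 0.89 without clone 3. With array weights, which favour clone 3, it was 0.37. ENO1 read 12.39 and 12.17 against 12.26, 12.16 and 12.37 (difference -0.01). ENO3 read 3.50 in both controls and 3.77, 3.31 and 3.50 in MondoA shRNA clones.

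The pyruvate kinase and lactate dehydrogenase genes differed little between the groups, with differences from -0.09 to 0.03. PKM, the pyruvate kinase of most tissues and tumours, read 10.85 in both controls and 10.81, 10.87 and 10.85 in MondoA shRNA clones (difference -0.01, interval from -0.07 to 0.06). The probe set does not separate its M1 and M2 splice forms. PKLR, the liver and red cell form, read 3.43 ± 0.00 and 3.46 ± 0.09. LDHA, the subunit that favours lactate formation, read 10.82 and 10.78 against 10.80, 10.87 and 10.81, a difference of 0.03 with an interval from -0.07 to 0.12. LDHB, the heart-type subunit, read 11.09 and 11.01 against 10.86, 11.08 and 10.93, a difference of -0.09 with an interval from -0.33 to 0.15. GAPDH, ENO1, LDHA, LDHB, PKM, PGK1 and TPI1 have processed pseudogenes, and signal from these was not assessed.

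The glycerol phosphate shuttle, which carries cytosolic NADH to the mitochondrion, gave GPD2 the third lowest difference. This mitochondrial dehydrogenase read 5.56 and 5.23 in control and 4.87, 5.23 and 4.91 in MondoA shRNA clones. The groups touched at 5.23, and the difference was -0.39 with an interval from -0.89 to 0.12, or -0.22 without control clone 1. Its cytosolic partner GPD1 read 3.18 ± 0.13 and 3.29 ± 0.19. The phosphoglucomutases, which link glycogen to glycolysis, read 8.35 ± 0.03 and 8.35 ± 0.11 for PGM1 and 8.56 ± 0.09 and 8.43 ± 0.14 for PGM2.

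Isoform choice was followed as the difference of 2 probe sets within an array. The levels of the 2 are not compared, and a probe set near background can hide or compress a shift. This may hold for PFKFB2, ENO3 and GPD1, which lay below the median gene level, and for ENO2, whose control mean did. Of 13 pairs listed, 12 could be computed. The exact permutation test over the 5 arrays, two-sided by doubling the smaller tail, cannot give a p below 0.2 for 2 against 3 arrays, so that none could pass. The SLC2A3 minus SLC2A1 balance was -0.48 and -0.66 in control and -1.07, -1.41 and -1.30 in MondoA shRNA clones, a shift of -0.69 away from SLC2A3 (exact p = 0.2, adjusted over the 12 balances 0.48). PFKP minus PFKL shifted by -0.36 and PFKP minus PFKM by -0.52, so PFKP was lower relative to both other subunit genes in all 3 clones (exact p = 0.2 each). The first of these balances was -1.11 and -0.97 in control and -1.32, -1.26 and -1.62 in MondoA shRNA clones.

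ENO2 minus ENO1 shifted by 0.68, from -8.49 and -8.41 in control to -7.69, -7.31 and -8.31 (exact p = 0.2). The control level of ENO2 may be near background, which was not tested. LDHA minus LDHB was -0.26 and -0.23 in control and -0.06, -0.21 and -0.12 in MondoA shRNA clones, a shift of 0.11 that left the clones just apart (exact p = 0.2). The HK2 minus HK1 balance overlapped, with a shift of 0.01 (exact p = 1). PFKFB4 minus PFKFB3 ran from -1.58 to -0.70 in MondoA shRNA clones around control values of -0.88 and -0.95. ALDOC minus ALDOA was 0.63 and 0.62 in control and 0.34, 1.26 and -0.02 in MondoA shRNA clones, so the aldolase balance differed between clones of the same label.

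**Figure D3:**
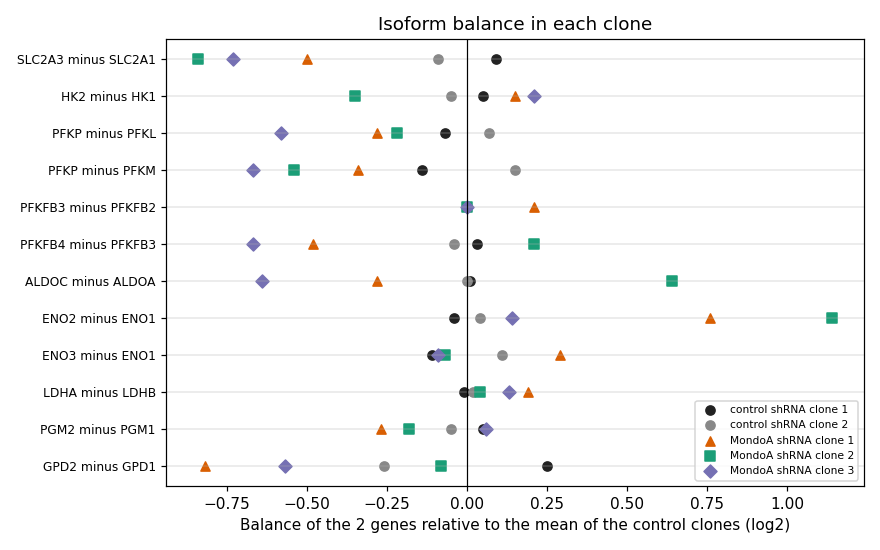
Within-array difference of 2 genes, given relative to its mean in the control clones (log2, x axis), for the 12 balances (rows); circles are control shRNA clones and the triangle, square and diamond MondoA shRNA clones 1, 2 and 3. SLC2A3 minus SLC2A1 and both PFKP balances lie left of the controls in every MondoA shRNA clone, ENO2 minus ENO1 lies right, and ALDOC minus ALDOA lies on both sides.

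The spread between MondoA shRNA clones was wider than the group difference for several genes. The range among these 3 clones exceeded 0.5 log2 units, a bound chosen after the values were seen, in 5 of 34 members (ALDOC 1.26, PFKFB4 0.89, ENO2 0.80, BPGM 0.75 and HK2 0.56). It did so in 9.67% of all genes and 16.6% of genes above the median level. In 4 of these 5 members clone 2 was the highest and clone 3 the lowest, while HK2 had clone 2 lowest and clone 3 highest. The median range of the members was 0.22 in MondoA shRNA and 0.07 in control clones, against 0.14 and 0.04 over all genes. Among genes above the median level it was 0.22 and 0.08 in the 26 members, against 0.24 and 0.07 over all such genes. A range over 3 arrays is larger than over 2 by construction.

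Among hypoxia-responsive genes outside glycolysis, BNIP3 and BNIP3L had the same order of clones. BNIP3, a mitophagy receptor gene induced by HIF1, read 8.54 and 8.53 in control and 8.72, 8.94 and 8.17 in MondoA shRNA clones 1, 2 and 3. Its relative BNIP3L read 8.28 and 8.17 against 8.21, 8.72 and 7.93. So did PDK1, the kinase that shuts pyruvate dehydrogenase, which belongs to the list of pyruvate entry and read 7.76 and 7.49 against 7.88, 8.25 and 7.75. The choice of these 3 genes was made with their values in view. Clone 2 was the highest of the 3 clones and clone 3 the lowest in 5 of the 13 measured hypoxia genes (BNIP3, BNIP3L, NDRG1, P4HA1 and P4HA2), in 6 of the 34 members, in 6.89% of all genes and in 14.6% of the 4301 genes with no tied value. The vascular peptide gene ADM, at 4.46, 4.34 and 4.52, and the lipase inhibitor gene ANGPTL4, at 3.52, 3.37 and 3.52, had clone 2 lowest. The median of clone 2 minus clone 3 over the 13 measured hypoxia genes was 0.16, with 10 above 0 and 2 below. It was 0.01 over the 34 members, 0.00 over all genes (6776 above 0 and 6031 below) and 0.07 over the genes with no tied value (2614 of 4301 above 0). In the list of pyruvate entry it was 0.19 (10 of 13 above 0). HIF1A itself read 8.50 and 8.42 against 8.08, 8.65 and 8.42, and MYC 9.90 and 9.81 against 9.51, 10.20 and 9.92.

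**Figure D4:**
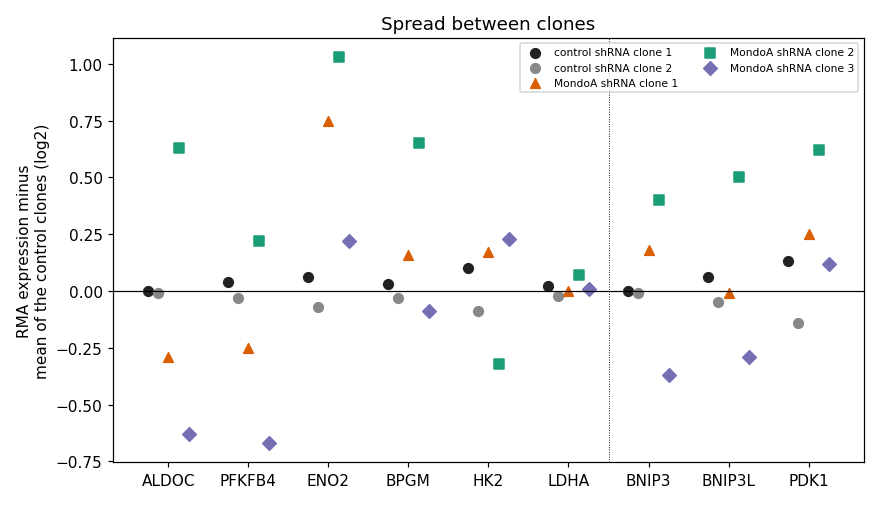
RMA expression minus the mean of the control clones (log2, y axis) in each clone for the 5 members with the widest range, for LDHA, and, right of the dotted line, for BNIP3, BNIP3L and PDK1. MondoA shRNA clone 2 (squares) lies highest in ALDOC, PFKFB4, ENO2, BPGM and the 3 genes on the right, and lowest in HK2, while the LDHA points nearly coincide.

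The windows of 250 bases before the start sites of these 4 members with clone 2 highest and clone 3 lowest (ALDOC, PFKFB4, ENO2 and BPGM) follow, with LDHA as a gene of steady values. Capitals are as above.
ALDOC, chr17:28576896-28577145, minus strand: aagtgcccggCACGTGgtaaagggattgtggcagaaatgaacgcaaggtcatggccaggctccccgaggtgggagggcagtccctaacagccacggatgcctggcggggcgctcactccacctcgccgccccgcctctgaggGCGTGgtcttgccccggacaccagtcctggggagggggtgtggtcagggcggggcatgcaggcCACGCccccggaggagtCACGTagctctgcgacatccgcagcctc
PFKFB4, chr3:48556804-48557053, minus strand: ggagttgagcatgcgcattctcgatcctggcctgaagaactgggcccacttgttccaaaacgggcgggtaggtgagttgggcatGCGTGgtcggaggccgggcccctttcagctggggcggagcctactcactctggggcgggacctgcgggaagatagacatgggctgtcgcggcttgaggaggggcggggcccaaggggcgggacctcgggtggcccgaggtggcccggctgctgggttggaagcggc
ENO2, chr12:6914330-6914579, plus strand: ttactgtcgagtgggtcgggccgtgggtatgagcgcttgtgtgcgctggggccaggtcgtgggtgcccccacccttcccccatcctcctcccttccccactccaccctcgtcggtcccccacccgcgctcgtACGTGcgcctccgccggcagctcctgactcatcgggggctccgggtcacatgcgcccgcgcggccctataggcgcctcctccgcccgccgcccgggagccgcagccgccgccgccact
BPGM, chr7:134646603-134646852, plus strand: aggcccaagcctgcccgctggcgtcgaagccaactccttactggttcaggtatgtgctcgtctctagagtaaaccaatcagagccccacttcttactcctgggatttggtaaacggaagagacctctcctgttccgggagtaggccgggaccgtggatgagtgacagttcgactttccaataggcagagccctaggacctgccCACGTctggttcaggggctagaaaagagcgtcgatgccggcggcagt
LDHA, chr11:18394313-18394562, plus strand: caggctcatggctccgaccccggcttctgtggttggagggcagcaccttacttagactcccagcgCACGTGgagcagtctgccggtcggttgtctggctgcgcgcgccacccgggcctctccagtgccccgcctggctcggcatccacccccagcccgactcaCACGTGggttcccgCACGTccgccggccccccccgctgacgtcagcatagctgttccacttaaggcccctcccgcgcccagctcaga
CACGTG occurs in the ALDOC window and at 2 places in the LDHA window, and not in those of PFKFB4, ENO2 and BPGM. LDHA has another annotated window, chr11:18396101-18396350, without CACGTG and with GCGTG at 1 place. RefSeq windows were found for 31 of the 34 members, 60 in all. CACGTG on either strand was present in 18.3% of these 60 and in 6.34% of all 35116 windows of that length. ACGTG, which is part of CACGTG, was present in 36.7% and 18.5%, and GCGTG in 28.3% and 32.2%. The spaced letters CACNNGNNNNNCACNNG (N is any base), looser than a pair of CACGTG, were present in 1 member window (GAPDH), and in 0.786% of all windows. In the GAPDH window the match is ctagtgcgcagcgggtg, read on the other strand, and it does not include the single CACGTG of that window. This match is therefore not a pair of CACGTG, and it is not read as a carbohydrate response element. Windows of the same gene can overlap, so they are not independent. Counted by gene, with any window holding the letters, GCGTG was present in 51.6% of the 31 member genes and 36.2% of all 27305 genes. That order is the reverse of the order by window. By gene ACGTG was present in 54.8% and 21.7%, and CACGTG in 29% and 7.73%. A gene with more windows has more chances of a match, and no share was tested.

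Neighbouring pathways showed few differences. In the list of glycogen genes (16 of 17 measured) 1 was lower and 0 higher when limma's unadjusted p under 0.05 was used (2.18% and 1.55% of all genes), and the median difference was 0.00. That gene was GBE1, the glycogen branching enzyme, which read 10.47 and 10.25 in control and 9.40, 9.90 and 9.19 in MondoA shRNA clones, a difference of -0.87 (adjusted p = 0.833 by limma). All 3 clones lay below both controls. GYG1, the primer protein of glycogen, was separated as well, with 8.58 and 8.38 against 7.80, 8.26 and 8.30. On the lower side 2 of the 16 genes were thus separated, against 5.18% of all genes, and 0 on the higher side, against 4.85%. Of the 9208 genes above the median level, 770 were separated on the lower and 665 on the higher side. Of the 4301 genes with no tied value, 713 and 621 were. GBE1 and GYG1 belong to both of these groups. UGP2, which makes UDP-glucose, had the highest difference of the list at 0.26.

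Among other transporters and tissue-restricted relatives (31 of 34 measured), 1 was higher and 1 lower by that unadjusted p (1.55% and 2.18% of all genes), with a median of -0.01. SLC2A13, a proton myo-inositol carrier, read 3.02 and 2.87 against 3.35, 3.12 and 3.26, and SLC2A9, a urate carrier, read 2.99 in both controls against 2.91, 2.94 and 2.94. Both lie below the median gene level. EMB, a chaperone of lactate carriers, had the highest difference at 0.36 and SLC2A14 the lowest at -0.28. BSG, the main chaperone of lactate carriers, read 9.43 and 9.31 against 9.37, 9.43 and 9.61.

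No gene of the lists for pyruvate entry (13 of 14 measured), the malate-aspartate shuttle (7 of 7), regulators (17 of 18) or hypoxia-responsive genes (13 of 14) stood at an unadjusted p under 0.05 in limma. Their median differences were 0.04, 0.09, 0.00 and 0.00. In pyruvate entry MPC1, a subunit of the mitochondrial pyruvate carrier, and PDK1 were highest at 0.33 each, and the kinase gene PDK3 was lowest at -0.22. In the shuttle the oxoglutarate carrier gene SLC25A11 stood at 0.19 and the aspartate-glutamate carrier gene SLC25A13 at -0.33. Among regulators MLX, the partner of MondoA, was highest at 0.22, reading 6.97 and 6.96 against 7.06, 7.36 and 7.13, and EPAS1 lowest at -0.16. MLX, AKT2 (0.21) and PRKAA1 (0.20) read higher in every MondoA shRNA clone than in both controls. That is 3 of 17 regulators, against 4.85% of all genes, and 0 regulators were separated on the lower side, against 5.18%. Of the 9208 genes above the median level, 665 were separated on the higher and 770 on the lower side. Of the 4301 genes with no tied value, 621 and 713 were. MLX, AKT2 and PRKAA1 belong to both of these groups. In the hypoxia list the prolyl hydroxylase genes P4HA2 and P4HA1 stood at 0.30 and -0.22.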

How the data were processed

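RNA of 5 Nalm6 clones (200 ng each) was hybridised to Affymetrix whole-transcript arrays, 1 per clone. The authors summarised probes with RMA in Affymetrix Expression Console 1.1, per the submitters' processing notes, and the deposited values are log2 expression per probe set (33297 probe sets, 1.42 to 13.34). The log base is not stated and was taken as 2, as RMA gives, and every fold rests on that. Scale and normalisation were kept.

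Probe sets with exactly 1 symbol in the platform annotation numbered 19460 (19429 matched RefSeq of GRCh38.p14), and the brightest probe set per gene left 18417 genes. These were fitted in limma 3.58.1 (R 4.3.3), two-sided, without filter. The number of arrays limits the precision, and as separate cultures are not described, p-values measure the spread between these clones. The members, lists and naming rule (every member, list members at unadjusted p under 0.05 and the extremes of each list) were chosen with earlier results of these data known. The limma step was tested on simulated data with independent normal noise, without tied values and with changes larger than any member's difference. That run does not measure the power for differences of the size seen here. Alternatives left out each array, blocked on the replicate number, renormalised, centred, filtered, weighted arrays (weights from limma), changed the prior or moderation, or treated probe sets differently. The array weights were 3.06 for MondoA shRNA clone 3 against 0.503 and 0.405 for clones 1 and 2, so weighted values rest mainly on clone 3 in that group. The fit on the 4301 genes with no tied value was added after seeing the data.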

Additional observations from a re-analysis of the deposited data

Results flagged for a closer look

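Signal outside the genes compared was seen in the probe sets annotated to both PGAM1 and PGAM4, whose near-identical sequences the annotation does not separate. All 5 of these probe sets read higher in every MondoA shRNA clone than in both controls, with differences of 0.13 to 0.17 and a median of 0.15. So did 4.85% of all genes, 665 of the 9208 genes above the median level and 621 of the 4301 genes with no tied value. In probe set 7929624 the values were 9.34 and 9.35 in control and 9.43, 9.68 and 9.39 in MondoA shRNA clones 1, 2 and 3. Probe sets 8173729 and 8176282 gave equal values, so the 5 are not independent readings, and clone 2 was the highest in each of the 5. In 8173729 and 8176282 the separation was narrow, with 8.99 in MondoA shRNA clone 3 against 8.98 in control clone 2. The difference was not tested.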

How the results depend on the processing

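The count of members past limma's adjusted threshold was 0 and ran from 0 to 1 with 1 array left out, the call being HK1 at 0.065 without control clone 1, where the 3 MondoA shRNA values are equal and the spread of the lone control is taken from the MondoA shRNA clones. The count of 3 lower members at an unadjusted p under 0.05 ran from 0 to 3 with 1 array left out, and was 4 with array weights, GPD2 at -0.45 being the added gene. That of 0 higher members ran from 0 to 2 with 1 array left out, and was 1 with array weights, with the arrays centred, with them quantile normalised again and over genes with no tied value, an alternative chosen after seeing the data. Over all genes the count of 0 became 2 when centred, 2 when quantile normalised again, 3 without moderation, 60 over genes with no tied value and 0 to 752 with 1 array left out. PFKP, PFKL and SLC2A3 kept a negative difference in every alternative run, which for left-out arrays was fixed by their separation. Arrays sharing a replicate number share no more than that number, and their deviations from the group means correlated at -0.29 and -0.23. With the number as a replicate block, MLXIP was 0.027 and 1 member (PFKP) stood on the lower side, and signs turned for HK2 -0.080, ALDOA -0.002, ALDOC 0.18, GAPDH -0.009, PKLR -0.022 and FBP1 -0.036. That fit sets MondoA shRNA clone 3 aside. MLXIP ran from -0.065 to 0.027 with 1 array left out.

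Other signs that turned belong to differences near 0 or to genes with clones on both sides of the controls, and the cause was not tested. With array weights these were ENO1 0.055 and PGM1 -0.060, with the arrays centred ALDOA -0.002 and PGM1 -0.004, and with them quantile normalised again HK2 -0.010, GPI 0.002, ALDOA -0.009, PGM1 -0.016 and HK2 minus HK1 balance -0.031. With 1 array left out the values ran for HK2 from -0.080 to 0.20, GPI from -0.064 to 0.035, ALDOC from -0.45 to 0.18, ENO3 from -0.095 to 0.14, PKM from -0.021 to 0.010, G6PC3 from -0.11 to 0.011, ENO1 from -0.12 to 0.099, PGM1 from -0.055 to 0.053, ALDOA from -0.002 to 0.012, GAPDH from -0.009 to 0.076, PKLR from -0.022 to 0.065, FBP1 from -0.036 to 0.084, HK1 from -0.031 to 0.065, HK2 minus HK1 from -0.097 to 0.18, ALDOC minus ALDOA from -0.46 to 0.18 and ENO3 minus ENO1 from -0.083 to 0.15. The number of arrays, 2 and 3, limits the precision of every value.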

Other observations

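The measured members lie on 16 chromosomes, with 0 on chromosome 18 and 7 on chromosome 12. Those on chromosome 12 (SLC2A3, PFKM, TPI1, GAPDH, ENO2, LDHB and GPD1) had 4 differences above 0 and 3 below. HK1 and HKDC1, neighbours on chromosome 10, differed by 0.02 and 0.12, and PFKP and PFKFB3 on the same chromosome by -0.69 and 0.07.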
